A study of Arabidopsis thaliana with 6 samples.

Results

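The XTH genes of Arabidopsis thaliana encode xyloglucan endotransglucosylase/hydrolases, enzymes of the plant cell wall. The family was taken by gene identifier and holds 33 genes, of which 8 had a row in a deposited table of 2896 loci with lower transcript levels in pkl than in the wild type (WT). These were XTH6, XTH12, XTH15, XTH16, XTH21, XTH22, XTH26 and XTH27. The comparison was between whole 14-day-old seedlings of the pkl mutant (3 libraries) and of WT (3 libraries), both grown in long days and sequenced from total RNA. PKL, or PICKLE, is a CHD3-type chromatin remodeling protein, and neither the pkl allele nor the number of seedlings per library is given in the labels. Levels are in FPKM, a read-fragment count scaled for transcript length and sequencing depth, so they can be set side by side between genes. The authors gave 1 value per genotype over its libraries, so no level below has a replicate error, and sequencing depth is unknown. Replicates are not stated to be separate cultures, so the authors' p-values may measure technical spread alone.

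Xyloglucan is a hemicellulose that coats and tethers cellulose in the primary wall. XTH enzymes cut a xyloglucan chain and either join the cut end to another xyloglucan chain (endotransglucosylase activity) or pass it to water (hydrolase activity), and so remodel the wall as cells expand. Most characterised members are endotransglucosylases, while hydrolase activity is known for XTH31 of group III-A. Different members are switched on in different organs and by different signals such as touch, shade, brassinosteroid and drought, and many act in elongating roots.

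The catalytic stretch shows what the 8 proteins share. It lies at the enzyme's active site and holds a glutamate that attacks the sugar chain, an aspartate, and a second glutamate that acts as the acid and base. The 27 bases that encode it were read from the RefSeq coding sequences of TAIR10.1, 5′ to 3′, with these 3 catalytic codons in capitals.

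XTH22: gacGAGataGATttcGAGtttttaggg

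XTH21: gacGAGataGATttcGAGtttttgggg

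XTH15: gacGAGataGACtttGAGtttctaggt

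XTH16: gacGAGataGACtttGAGtttcttggt

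XTH6: gacGAGctaGATtttGAGttcttggga

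XTH12: gatGAGattGATttcGAGttcttgggt

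XTH26: gatGAGataGACttcGAGttcctagga

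XTH27: gatGAGataGATtttGAGtttcttggt

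All 8 genes had GAG at both glutamate codons, as did most unlisted members in which the stretch was found, such as XTH5, XTH7 and XTH23. The rest had GAA at either or both codons, as in XTH13 at the first, XTH8 at the second and XTH1 at both. Against XTH22, the stretch of XTH21 differed at 1 base, that of XTH15 at 4, and those of XTH6, XTH12, XTH16, XTH26 and XTH27 at 5 each. The protein pattern (aspartate, glutamate, any residue, aspartate, any residue, glutamate, then phenylalanine, isoleucine, leucine or methionine, then leucine or methionine, then glycine) was found in 31 of the 33 members, with XTH9 and XTH11 as the exceptions. The 31 stretches were all different from each other in bases.

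As a check of the mutant, the transcript of PKL (AT2G25170) stood at 6.79 FPKM in pkl seedlings and 19.2 FPKM in WT seedlings, a 2.84-fold lower level. The locus of that value touches 3 other annotated genes. The authors' deposited table gave it a q-value of 0.000338. All loci of the table were called by the authors with q under 0.05 and lower in pkl. A total of 19554 tests lie behind those q-values, as recovered from the p-values and q-values themselves, so the lower loci were 14.8% of what was tested. The 8 XTH genes were 24.2% of the family. Which of the other 25 members had enough reads to be tested is not known, and no test was made of this share. The same holds for the gene lists and neighbours counted below, whose shares include genes that may not have been tested.

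XTH22, better known as TCH4, is the touch-inducible member of the family and also responds to brassinosteroid and temperature. It had the highest WT level and the largest fold of the 8 genes. XTH22 (AT5G57560, chromosome 5, positions 23306979 to 23309250 in TAIR10) stood at 90.4 FPKM in pkl seedlings, against 304 FPKM in WT seedlings. The level in pkl was 29.8% of that in WT, or 3.36-fold lower, and the authors' deposited table gave a q-value of 0.000338. XTH22 was 197th by fold and 151st by WT level among the 2896 loci. Of the 151 loci with a WT level at least as high, 7 had a fold at least as large, XTH22 included.

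XTH6 and XTH15 were the other members more than 2-fold lower. XTH6 (AT5G65730, chromosome 5, positions 26299032 to 26300478) stood at 31.9 FPKM in pkl and 88.9 FPKM in WT, 2.78-fold lower. XTH15 (AT4G14130, chromosome 4, positions 8135124 to 8138554), a member induced by shade in petioles, stood at 27.7 FPKM in pkl and 58.6 FPKM in WT, 2.11-fold lower. Both had a q-value of 0.000338 in the authors' deposited table. With a minimum of 2-fold, 748 loci were called lower in pkl, 3.83% of the tests, and 3 of the 33 XTH genes.

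**Figure D1:**
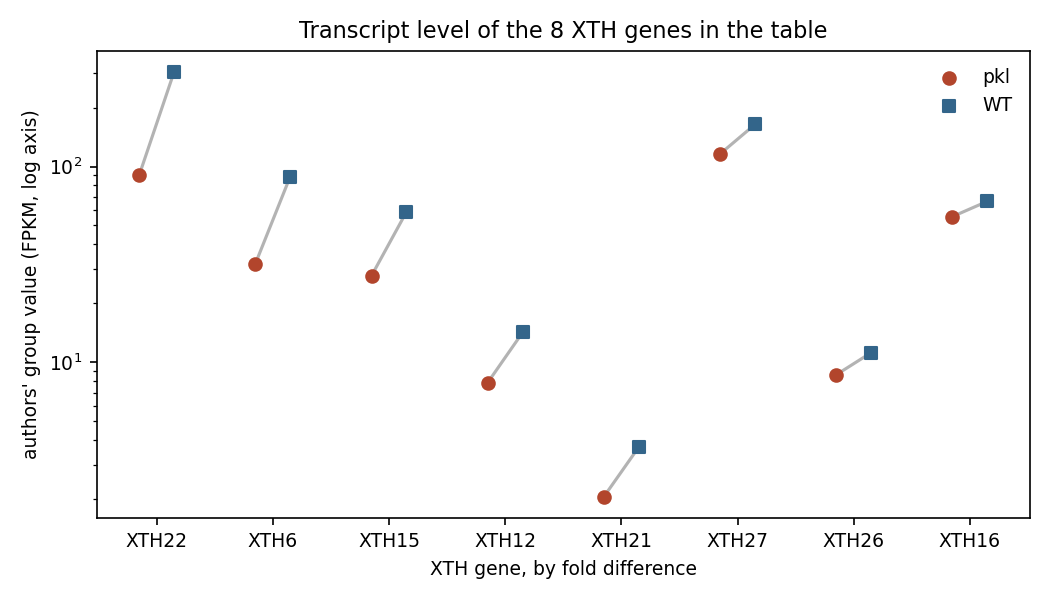
Authors' FPKM value (log axis) of each of the 8 XTH genes in pkl seedlings (circles) and WT seedlings (squares), 1 value per genotype, ordered by fold. XTH22 at the left stands at 90.4 FPKM in pkl and 304 FPKM in WT, the highest WT level, and XTH16 at the right shows the smallest difference.

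XTH16 is the closest relative of XTH15 in the family, with 85.8% identical residues, and it too is known from shaded petioles. XTH16 (AT3G23730, chromosome 3, positions 8550110 to 8551335) stood at 55.5 FPKM in pkl and 66.4 FPKM in WT. This was the smallest fold of the 8, 1.2-fold lower, with a q-value of 0.0277 in the authors' deposited table. In WT the level of XTH16 was close to that of XTH15, 66.4 against 58.6 FPKM, whereas in pkl XTH16 had 55.5 and XTH15 27.7 FPKM. The XTH15 values belong to a locus that also covers 2278 bases of AT4G14120, so they may include its reads. The XTH16 locus touches no second annotated gene. Whether the fold of the pair differed was not tested, since no values per library were used.

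XTH27, first described as EXGT-A3 and known for a role in the water-conducting cells of leaf veins, was the only listed member of group III, the branch of the family that stands apart in sequence. XTH27 (AT2G01850, chromosome 2, positions 385199 to 387486) stood at 116 FPKM in pkl and 164 FPKM in WT, 1.41-fold lower, with a q-value of 0.000338 in the authors' deposited table. In pkl it had the highest level of the 8 genes, above XTH22 at 90.4 FPKM. In WT that order was the other way round, with XTH27 at 164 FPKM below XTH22 at 304 FPKM.

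The other 3 listed members are reported mainly from roots and had low levels in these whole seedlings. XTH12 (AT5G57530, chromosome 5, positions 23300321 to 23301605) stood at 7.88 FPKM in pkl and 14.2 FPKM in WT, 1.8-fold lower. XTH21 (AT2G18800, chromosome 2, positions 8144912 to 8146265), which is needed for normal root growth, stood at 2.06 FPKM in pkl and 3.69 FPKM in WT, 1.79-fold lower. XTH26 (AT4G28850, chromosome 4, positions 14244295 to 14245957), a gene of root hairs, stood at 8.64 FPKM in pkl and 11.2 FPKM in WT, 1.3-fold lower. XTH12 had a q-value of 0.000338, XTH21 one of 0.00724 and XTH26 one of 0.0294 in the authors' deposited table. Added up, these root members came to 18.6 FPKM in pkl and 29.1 FPKM in WT. The 5 other listed members came to 322 FPKM in pkl and 682 FPKM in WT.

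Of the 9 members reported mainly from roots, 3 (33.3%) were in the table, and of the other 24 members 5 (20.8%) were, beside 14.8% of all tests. The difference between these shares was not tested. Among markers of root tissue, 7 of 14 genes (50%) had a row and were lower in pkl, beside 14.8% of all tests. Their summed level was 81.1 FPKM in pkl and 139 FPKM in WT, which includes CASP2, whose locus also holds AT3G11540. IRT1, the iron transporter of the root epidermis, stood at 0.959 FPKM in pkl and 1.96 FPKM in WT. CASP1, a scaffold protein of the endodermal Casparian strip whose locus touches the neighbouring gene AT2G36090, had 25 FPKM in pkl and 48.5 FPKM in WT, and THAS, the thalianol synthase gene, had 2.17 FPKM in pkl and 4.14 FPKM in WT. Less root tissue and less RNA per root cell cannot be told apart in whole seedlings, and the part of the root share in the levels of the root XTH genes was not tested. The markers CASP4, CASP5, MYB36, RHD6, LRX1, PRP3 and WER had no row.

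Across the 8 genes, pkl levels spanned 56.3-fold and WT levels 82.4-fold. Without XTH22 the order turned round, with 56.3-fold in pkl and 44.5-fold in WT. Their summed level was 340 FPKM in pkl and 711 FPKM in WT, 2.09-fold lower in pkl. XTH22 alone made up 57.6% of the difference in this sum, with 26.6% of the pkl sum and 42.7% of the WT sum. Without XTH22 the sum was 250 FPKM in pkl and 407 FPKM in WT, 1.63-fold lower. These sums hold only genes that passed as lower, so they do not describe the XTH transcripts of the seedling as a whole.

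The median fold of the 8 was 1.8 (median log2 fold change -0.85), beside 1.52 (-0.60) over all 2896 loci. Among the 8, 5 had a larger fold than the median locus and 3 had a smaller one. The median WT level was 62.5 FPKM for the 8 genes and 16.8 FPKM for all loci. In pkl the median level was 29.8 FPKM for the 8 genes and 10.7 FPKM for all loci. The smallest p-value that the authors' deposited table lists, 5e-05, was given to 5 of the 8 genes (62.5%) and to 1428 of all loci (49.3%). With q under 0.01 in the authors' deposited table, 6 of the 33 XTH genes of the family were called, beside 11.0% of all tests. XTH16 and XTH26 were the members above that threshold. Having passed the authors' test, these 8 genes had to differ, so their median is a description.

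**Figure D2:**
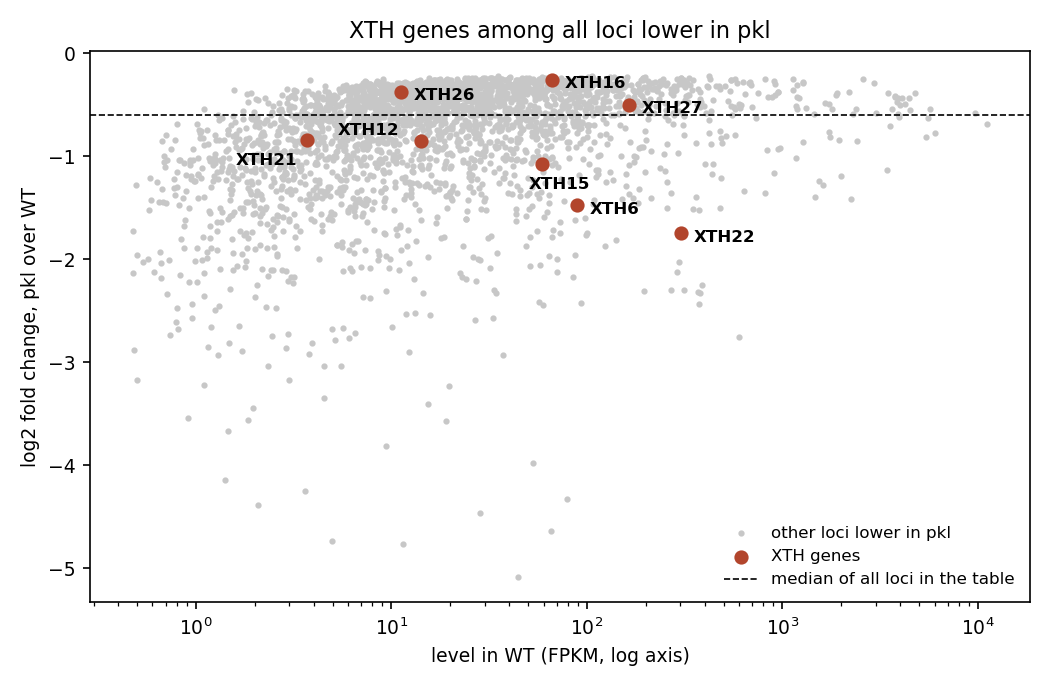
Log2 fold change of pkl over WT against the WT level in FPKM (log axis) for all 2896 loci of the table (grey) and the 8 XTH genes (red), with the median of all loci at -0.60 dashed. XTH22, XTH6, XTH15, XTH12 and XTH21 lie below the dashed line, and XTH27, XTH26 and XTH16 lie above it.

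The other 25 members, which have no row in the table, were XTH1 to XTH5, XTH7 to XTH11, XTH13, XTH14, XTH17 to XTH20, XTH23 to XTH25 and XTH28 to XTH33. Their levels and direction were not analysed here. By branch, 7 of the 26 members of groups I and II (26.9%) and 1 of the 5 members of group III-B (20%) were in the table, beside 14.8% of all tests. Neither member of group III-A, XTH31 and XTH32, had a row. The listed genes lay on chromosomes 2, 3, 4 and 5, and their coding sequences ran from 855 bases in XTH22 to 1002 bases in XTH27.

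Listed and unlisted members were close relatives of each other. For 5 of the 8 genes the most similar protein belonged to an unlisted member. XTH12 and XTH13 had 93% identical residues, XTH22 and XTH23 84%, XTH27 and XTH28 78.6%, XTH6 and XTH7 75.1%, and XTH21 and XTH24 68.4%. The other 3 were XTH15 and XTH16, each the closest to the other, and XTH26, whose closest relative was the listed XTH21 at 51.1%. Among the 28 pairs of listed proteins, identity ran from 34.1% (XTH26 and XTH27) to 85.8% with a median of 49.9%, beside a median of 45.4% over all 528 pairs of the family. The coding sequences of XTH12 and XTH13 were 89.7% identical, so reads from their most similar stretches may not be assigned with certainty. No other listed gene had a closest member above 81.7% in coding sequence.

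**Figure D3:**
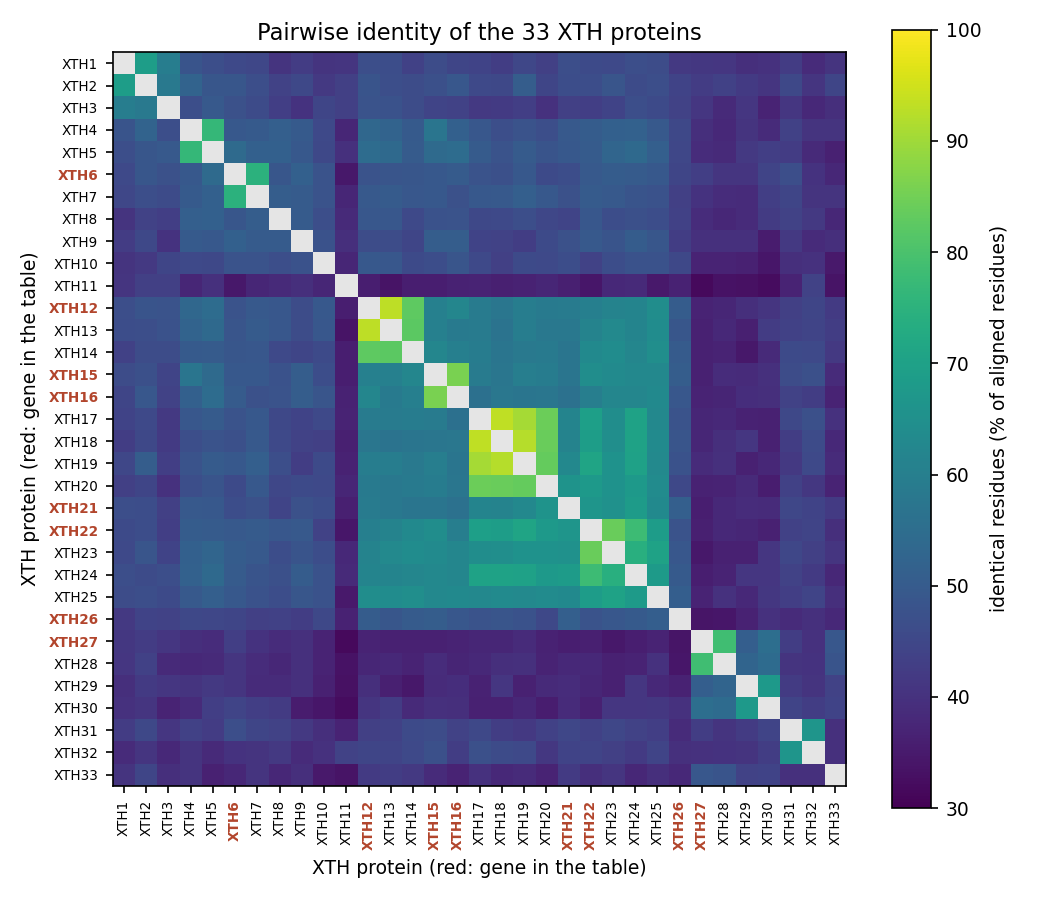
Percentage of identical residues between each pair of the 33 XTH proteins (colour), with the 8 genes in the table named in red on both axes. The red names are spread over several blocks of relatives, and the bright cell of XTH12 and XTH13 (93%) joins a listed and an unlisted gene.

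Several XTH genes sit side by side in the genome. The group of 4 on chromosome 5 holds XTH12, XTH13, XTH25 and XTH22 on the same strand, with the coding gene AT5G57535 between XTH12 and XTH13. Its outer genes XTH12 and XTH22 were in the table, and XTH13 and XTH25 between them had no row. Added up, the pair stood at 98.3 FPKM in pkl and 318 FPKM in WT. In the chromosome 4 groups, XTH24 with XTH18 and XTH19, XTH1 with XTH2, and XTH23 with XTH14, none had a row. Of the 16 nearest protein-coding neighbours of the listed genes, 3 were in the table (18.8%, beside 14.8% of all tests). Of the 50 neighbours of unlisted members, 3 were (6%), and these include XTH22 itself, as the neighbour of XTH25. Both counts hold XTH genes that neighbour each other, and the difference between the shares was not tested. Neighbours were counted whether or not they had been tested, so their shares and the 14.8% of tests have unlike bases. Both neighbours of XTH26 were among the 3 beside listed genes. AT4G28840 stood at 0.808 FPKM in pkl and 1.94 FPKM in WT, and the casein kinase gene ckl4 at 27.9 FPKM in pkl and 36.8 FPKM in WT. The third was WOL, a cytokinin receptor gene beside XTH27, with 5.89 FPKM in pkl and 8.24 FPKM in WT.

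**Figure D4:**
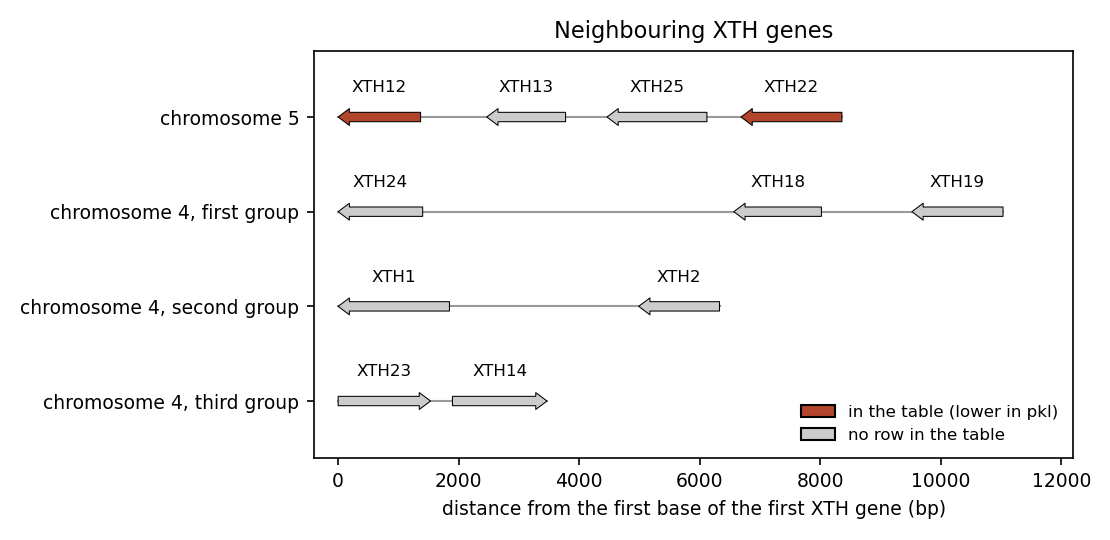
Neighbouring XTH genes drawn to scale by distance in bp from the first base of the first XTH gene of each group, with arrows in the direction of transcription. In the chromosome 5 group XTH12 and XTH22 (red) are in the table, while the 7 genes of the chromosome 4 groups (grey) have no row.

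The locus to which a level belongs was wider than the gene in some cases. The XTH15 locus was 3431 bases long and covered 2278 bases of AT4G14120, an uncharacterized gene on the other strand that the table does not name there. The XTH22 locus covered 108 bases of the non-coding gene AT5G08715, also on the other strand. The strandedness of the libraries is not given, so reads from these neighbours and from XTH15 or XTH22 cannot be told apart. The other 6 listed loci touched no second annotated gene.

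Short motifs were counted in the 250 bases before each RefSeq gene start, on both strands. The G-box CACGTG, which light-signalling and other bHLH and bZIP factors bind, was in 0 of 33 XTH windows and in 6.49% of 27443 windows of all protein-coding genes. The related PBE-box CATGTG was in 5 of the 33, XTH26 being the single listed gene, and in 11.1% of all windows. The brassinosteroid response element (CGTGTG or CGTGCG) was in 4 of the 33, all unlisted, and in 6.71% of all windows. The CAMTA element CGCGTG was in none of the 33 and in 2.57% of all windows. The DRE core CCGAC was in XTH20 alone and in 12% of all windows. For XTH6 the RefSeq start lies 304 bases before the start of its locus in the table, and the XTH22 locus begins 570 bases before the RefSeq start, so these windows depend on the annotation.

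Other lists of wall genes had between 0% and 20% of their members in the table, around the 14.8% of all tests, and whether these shares differ from that of the XTH family was not tested. Of 28 expansin genes, whose proteins loosen the wall without cutting it, 3 (10.7%) were in the table. EXPA16 stood at 7.84 FPKM in pkl and 24 FPKM in WT, 3.06-fold lower. EXPA1 had 117 FPKM in pkl and 168 FPKM in WT, and EXPA4 had 30.4 FPKM in pkl and 38.1 FPKM in WT. In the authors' deposited table these 3 had q-values between 0.000338 and 0.00407.

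Of 14 genes that build xyloglucan in the Golgi, such as the CSLC glucan synthases and the XXT xylosyltransferases, 0 had a row. The authors' Cuffdiff calls were used for this count, and loci that missed the threshold were not analysed here. Among 5 glycosidases that trim xyloglucan, 1 had a row: AT5G04885, annotated as a glycosyl hydrolase, at 8.04 FPKM in pkl and 11 FPKM in WT. Of 10 genes of cellulose synthesis in the primary wall, 2 had a row. The cellulose synthase gene CESA1 stood at 148 FPKM in pkl and 182 FPKM in WT, and COB, which guides the orientation of cell expansion, stood at 142 FPKM in pkl and 186 FPKM in WT.

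Brassinosteroid, a growth hormone that induces several XTH genes, was represented by 12 genes of synthesis and signalling, of which 2 had a row, a share of 16.7% that is close to the 14.8% of all tests. DWF4, the rate-limiting hydroxylase of the pathway, stood at 11.8 FPKM in pkl and 18.6 FPKM in WT, 1.57-fold lower. CPD, another cytochrome P450 of brassinosteroid synthesis, stood at 134 FPKM in pkl and 190 FPKM in WT, but its locus covers 3 further annotated genes. The receptor gene BRI1 and the transcription factor genes BZR1 and BES1 had no row.

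**Figure D5:**
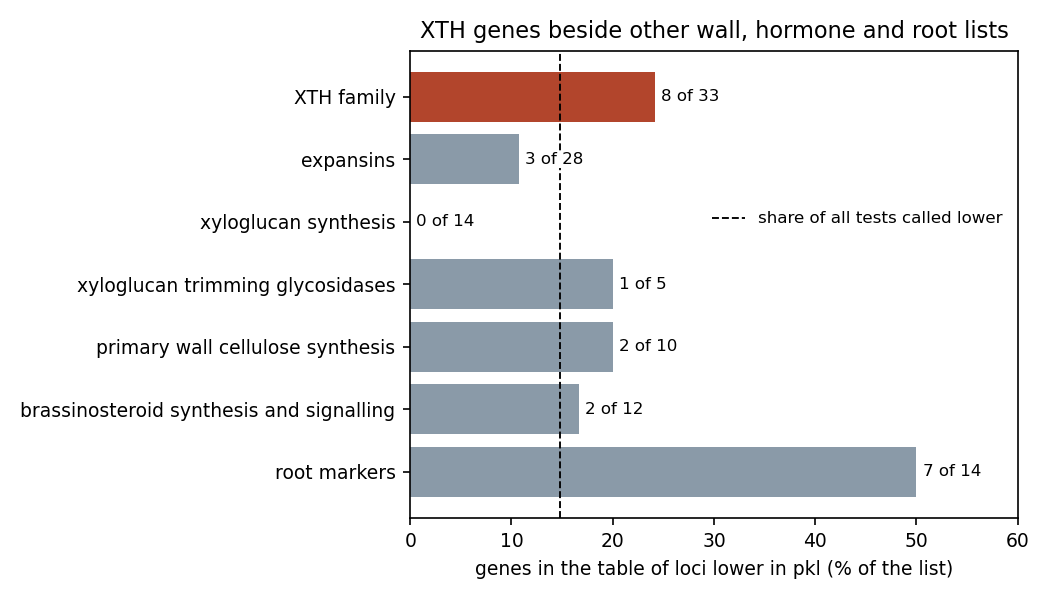
Share of each gene list (%) that was in the table of loci lower in pkl, with the counts beside the bars and the share of all tests called lower, 14.8%, dashed. The XTH family has 8 of 33, the root markers 7 of 14, and xyloglucan synthesis 0 of 14.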

How the data were processed

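Total RNA from 6 libraries (3 pkl, 3 WT) was sequenced. Per the submitters' processing notes, TopHat, Cufflinks 2.1.1 and Cuffdiff 2.1.1 were used with the TAIR10 build. The authors deposited 1 table of 2896 loci. Per the file headers, it gives FPKM as 1 value per genotype, the log2 fold change of pkl over WT, a signed test score that was not used, and p-values and q-values. The deposited log2 values matched those recomputed to within 1.2e-05. The table holds lower loci alone, so members without a row have no direction here.

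Folds are WT FPKM over pkl FPKM with no pseudocount, and no test of replicates could be run. The number of tests, 19554, made the rank of each p (p over q times the number) whole to within 0.017; the next best of the numbers from 2896 to 38999 gave 0.311. The recovery was tested on simulated data. Starts in the table are counted from 0 and printed from 1. All 2709 single-gene loci found in the RefSeq TAIR10.1 annotation overlapped their gene. Proteins were translated from the longest coding sequence and aligned globally (Biopython 1.88, BLOSUM62, gap penalties 10 and 0.5).

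The members, the gene lists and the naming rule (every listed XTH gene, PKL, and up to 4 genes per other list with the largest fold) were chosen with earlier results of these data known; neighbours of listed genes were named after their values were seen. Each symbol is the one RefSeq gives or a synonym it lists. 1 gene of the root marker list is not reported here by name.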

Additional observations from a re-analysis of the deposited data

How the results depend on the processing

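The table of 2896 loci limits every alternative, since it has 1 value per genotype and lower loci alone. The count of 8 XTH genes was 6 with q under 0.01, 7 with at least 5 FPKM in WT, 8 with at least 1 FPKM in WT or with single-gene loci, and 3 with a minimum of 2-fold. That minimum removes members by its own construction, as it left 1 expansin, 2 root markers, and 0 genes each of xyloglucan trimming, cellulose synthesis and brassinosteroid. With q under 0.01 or at least 1 FPKM in WT, the count of every other list was within 1.5 times its value, and xyloglucan synthesis gave 0 throughout. The median log2 fold change of the 8 genes, -0.85, was -0.83 with a pseudocount of 0.1 FPKM and -0.70 with one of 1 FPKM. Leaving XTH22 out of the summed level, chosen after seeing the data, gave 1.63-fold in place of 2.09-fold. It left the span of levels at 56.3-fold in pkl and made it 44.5-fold in WT in place of 82.4-fold. Leaving out each replicate was not run for want of values by library. No paired analysis was possible because replicate numbers are absent from a table with 1 value per genotype.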
